A study of Mus musculus with 8 samples.

Results

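PRDM10 ChIP-seq peaks that touch annotated promoters on both DNA strands numbered 92 of the 528 peaks listed for control cells and 29 of the 176 peaks listed after deletion of *Prdm10*. A peak belonged here when its listed interval overlapped, by at least 1 bp, the promoter of at least 1 plus-strand and at least 1 minus-strand transcript of GENCODE M21, a promoter being the transcription start site (TSS) with 1 kb upstream of it. The rule used positions and the annotation only. Signal values, the DNA sequence and the presence of a 4-OHT peak at an EtOH member did not enter it. Even so, GC and CpG content go with the promoter class, as given below, and a wider interval can reach more promoters. All cells were mouse embryonic stem cells (mESCs) in which exon 5 of both *Prdm10* alleles was flanked by loxP sites (Prdm10F/F) and a tamoxifen-inducible Cre recombinase, CreERT2, was carried at the *ROSA26* locus. The controls received ethanol (EtOH), which leaves the floxed alleles in place, and the other cells received 50 nM 4-hydroxytamoxifen (4-OHT) to delete exon 5, in both cases for 24 h with harvest at 48 h. Each treatment had 3 ChIP samples, made with 3 different polyclonal antibodies against PRDM10, and 1 input sample. The authors pooled the samples of a treatment into 1 list, so no value below has a replicate, and no difference below carries a test. The study's methods give an approximate number of raw reads per library, but the lists do not give the reads behind a peak. Intervals on shares are Wilson 95% intervals and cover the sampling of peaks only. Whether the cells came from 1 clone, and how much PRDM10 protein was left at harvest, was not measured in these lists.

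PRDM10 is a zinc finger protein of the PRDM family, in which zinc fingers usually read specific DNA sequences. Mammalian genes often lie head-to-head, with the TSSs of a plus-strand and a minus-strand gene back to back over a short shared stretch of DNA. Such bidirectional promoters are commonly rich in CpG dinucleotides and are known from housekeeping genes of DNA repair, mitochondria and RNA metabolism. At other promoters the opposite strand gives rise to a noncoding antisense or divergent transcript. A peak over such a stretch cannot be given to one of the genes by position alone, so each peak is named here by the nearest TSS on each strand, with the plus-strand gene first.

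The sequence examined at these promoters was a motif core of TGGT, 5 bases of any kind and CC, on either strand. It was read by eye from the logo of the motif that the study derived from the EtOH peaks, members included. Its presence at members is therefore not independent evidence of that motif. Shown first are the core sites nearest the summit (the position of highest enrichment) at the 11 strongest EtOH members that had a core, to show how much of the sequence around the core differs between them. Each line gives 9 bases on either side of the core, in the direction in which the core reads, from GRCm38, with TGGT and CC in capitals.

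*Uchl1*/*Uchl1os*, chr5:66676084-66676112, minus strand: cgcacagaaTGGTacaagCCaagccccca

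*Gm16062*/*Flcn*, chr11:59810036-59810064, plus strand: aagcgtagaTGGTtccggCCgccgagaga

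*Sept11*/*Gm43173*, chr5:93093365-93093393, plus strand: ggcagctaaTGGTcgagtCCaggcgggag

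*Smc3*/*AC137853.1*, chr19:53600126-53600154, minus strand: cacggactaTGGTcgcgcCCgtgaggggc

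*Rhbdd3*/*Ewsr1*, chr11:5099105-5099133, minus strand: ctggcccgaTGGTagcgtCCgaggttgcg

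*Aagab*/*Iqch*, chr9:63602636-63602664, plus strand: ccgctgcagTGGTacggcCCaaggcggaa

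*Arpc4*/*Tada3*, chr6:113377907-113377935, minus strand: ttgtcgcttTGGTtgtagCCtccccccgt

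*Prkdc*/*Mcm4*, chr16:15637704-15637732, plus strand: tggttagacTGGTtctgtCCctttgcatt

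*Mrps27*/*Ptcd2*, chr13:99344780-99344808, plus strand: ccttccactTGGTgcgctCCaagatggcg

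*Ankrd13a*/*Git2*, chr5:114774682-114774710, minus strand: ctcttccagTGGTgcgctCCacaatcggg

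*Ddx54*/*Rita1*, chr5:120612696-120612724, plus strand: ttgcgtggtTGGTacattCCtcgagtttg

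The 11 sites read on the plus strand at 6 promoters and on the minus strand at 5. The stretches of *Uchl1*/*Uchl1os*, *Rhbdd3*/*Ewsr1*, *Aagab*/*Iqch*, *Mrps27*/*Ptcd2* and *Ankrd13a*/*Git2* overlap an annotated exon, and those of the other 6 do not. The site lay 1 bp from the summit at *Ankrd13a*/*Git2*, 4 bp at *Gm16062*/*Flcn* and 7 bp at *Ddx54*/*Rita1*, and 185 bp from the stronger of the 2 summits at *Prkdc*/*Mcm4*, where the other summit lay 15 bp from it. Where members share a site, its distance is given from the stronger summit.

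The DNA between the TSSs is shown whole for 3 head-to-head coding pairs that span the range of core counts, with no annotated exon in any of the stretches. They are given on the plus strand of GRCm38 with core matches on either strand in capitals, so that the minus-strand gene starts just to the left of each stretch and the plus-strand gene just to the right. *Ddx54*/*Rita1* holds 3 cores in this stretch, *Arpc4*/*Tada3* holds 2, on opposite strands, and *Cenpn*/*Cmc2*, the strongest member of both lists, holds none.

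*Ddx54*/*Rita1*, chr5:120612590-120612738: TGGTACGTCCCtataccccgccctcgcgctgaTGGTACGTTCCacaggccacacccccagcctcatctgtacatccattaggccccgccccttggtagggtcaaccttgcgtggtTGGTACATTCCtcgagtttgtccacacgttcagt

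*Arpc4*/*Tada3*, chr6:113377884-113378114: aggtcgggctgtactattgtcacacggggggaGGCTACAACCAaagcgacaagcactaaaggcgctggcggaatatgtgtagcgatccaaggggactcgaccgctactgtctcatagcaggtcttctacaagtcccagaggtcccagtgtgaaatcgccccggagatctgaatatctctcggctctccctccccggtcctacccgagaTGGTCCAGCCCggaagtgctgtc

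*Cenpn*/*Cmc2*, chr8:116921456-116921729: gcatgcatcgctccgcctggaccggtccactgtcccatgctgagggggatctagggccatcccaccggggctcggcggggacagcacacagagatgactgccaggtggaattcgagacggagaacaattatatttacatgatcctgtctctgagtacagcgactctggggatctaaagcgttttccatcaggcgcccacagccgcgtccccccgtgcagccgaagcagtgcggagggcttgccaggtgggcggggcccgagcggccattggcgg

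Members made up 17.4% of the EtOH list (interval 14.4 to 20.9%) and 24.5% of its 376 peaks at promoters. In the 4-OHT list they made up 16.5% of all peaks (interval 11.7 to 22.7%) and 25.2% of the 115 peaks at promoters, so the shares in the lists lay within each other's intervals. The remaining EtOH peaks comprised 284 at promoters of one strand only and 152 away from promoters. The 92 EtOH members lay in 87 distinct intervals and, once overlapping intervals were joined, in 81 regions, since the authors' caller listed a second summit in some intervals and overlapping intervals in others. They named 80 pairs of nearest genes, and their intervals touched the promoters of 163 genes, 139 of them protein-coding. At 4 members the interval touched the promoters of 3 genes.

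The signal value is the enrichment that the peak caller gave over the pooled samples of a treatment. At EtOH members it ran from 11.6 to 838 with a median of 289 and an interquartile range of 96.6 to 445, beside a median of 131 (50.3 to 338) over all 528 EtOH peaks. One-strand promoter peaks had a median of 194 (interquartile range 78.2 to 411) and peaks away from promoters a median of 47.5 (36.9 to 102). Of the members, 36 of 92 (39.1%) were among the 132 strongest EtOH peaks, the upper 25% of the list, against 87 of the 284 one-strand peaks (30.6%) and 9 of the 152 peaks away from promoters (5.92%). The interquartile ranges of the 2 promoter classes overlapped over most of their length. In the 4-OHT list the members' median was 107 (68.5 to 175), beside 95.04 (52.5 to 168) at one-strand promoters and 41.2 (38.1 to 43.9) away from promoters. Signal values of the EtOH and 4-OHT lists were kept apart and were not compared between lists.

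**Figure D1:**
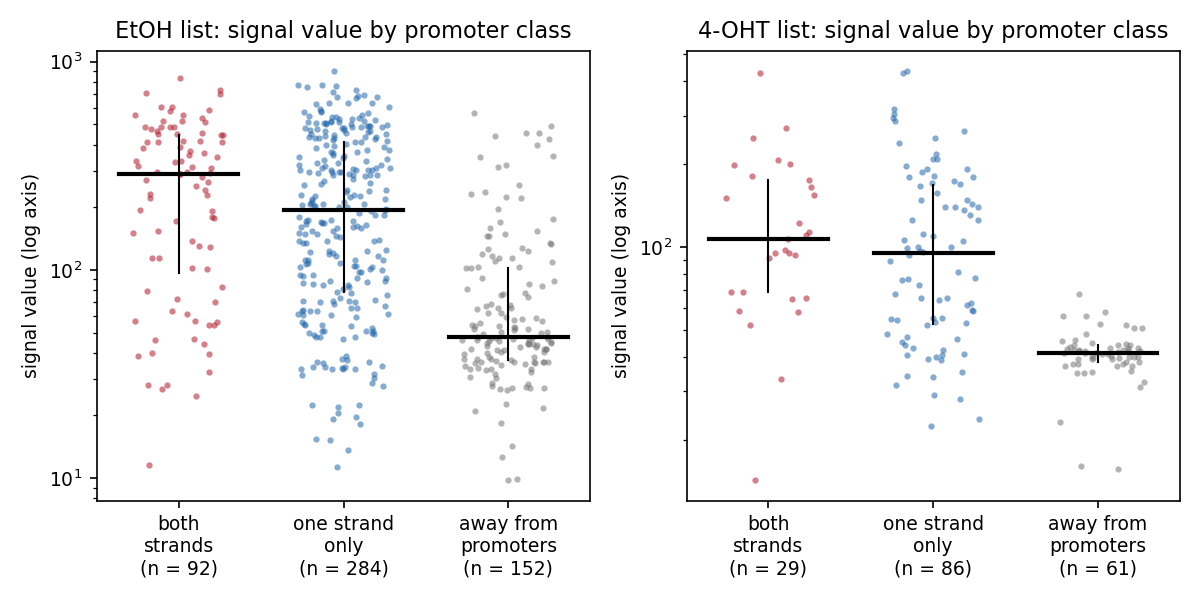
Signal value (log axis) of every listed peak in the EtOH list (left) and the 4-OHT list (right), by promoter class. Each point is a peak, thick lines are medians and thin lines interquartile ranges. In the EtOH list the median is 289 at promoters on both strands, 194 at promoters on one strand only and 47.5 away from promoters, with wide overlap between the 2 promoter classes.

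The strongest member was the peak at chr8:116921365-116921834, between *Cenpn*, which encodes a centromere protein that binds CENP-A nucleosomes, and *Cmc2*, which encodes a mitochondrial protein linked to cytochrome c oxidase assembly. Its signal value was 838, the second highest of the EtOH list, and its summit lay in the 275 bp between the TSSs, 125 bp from that of *Cenpn* and 150 bp from that of *Cmc2*. The next was *Uchl1* with its antisense transcript *Uchl1os* (731, chr5:66675955-66676333), *Uchl1* encoding a ubiquitin carboxyl-terminal hydrolase. *Flcn*, which encodes folliculin, a regulator of nutrient signalling at lysosomes, followed with the noncoding *Gm16062* (704, chr11:59809736-59810373). The septin gene *Sept11* with *Gm43173* (701) and the cohesin subunit gene *Smc3* with *AC137853.1* (609) came next, so that at 4 of the 5 strongest members the partner of the coding gene was a transcript not annotated as protein-coding, at *Gm43173* and *AC137853.1* one of the class TEC, transcripts still to be tested experimentally.

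The other 7 of the 12 strongest members joined 2 protein-coding genes each. *Ewsr1*, which encodes an RNA-binding protein of the FET family, shared its promoter with *Rhbdd3* (603). *Aagab*, encoding an adaptin-binding protein, and *Iqch* had a signal value of 588. *Arpc4*, a subunit of the actin-nucleating Arp2/3 complex, lay with *Tada3*, a subunit of histone acetyltransferase complexes, at 581. *Prkdc*, the catalytic subunit of DNA-dependent protein kinase, lay with *Mcm4*, a subunit of the replicative helicase, at 554. *Mrps27*, a mitochondrial ribosomal protein gene, lay with *Ptcd2*, whose product acts on mitochondrial RNA, also at 554. *Ankrd13a* with *Git2*, a GTPase-activating protein gene, reached 534, and the RNA helicase gene *Ddx54* with *Rita1* reached 520.1.

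Between these and the weakest members lay many other pairs, of which some are given here, chosen after their values were seen. *Wasf1*, a regulator of actin assembly, with the splicing factor gene *Cdc40*, had a signal value of 514. *Cdipt*, which encodes phosphatidylinositol synthase, had 485 with *Cdiptos*. *Ppp1r13l* had 474 with *Cd3eap*, a gene of RNA polymerase I. *Mpst* and *Tst*, 2 related genes for mitochondrial sulfur transfer enzymes that start 509 bp apart, had 447. *Polr2l*, which encodes a small subunit of RNA polymerase II, had 416 with *Tspan4*, and *Polr1a*, the largest subunit of RNA polymerase I, had 334 with *Ptcd3*. *Dlst*, a subunit of the 2-oxoglutarate dehydrogenase complex, had 374 with *Prox2*. *Psma7*, a proteasome subunit, had 357 with *Ss18l1*, and the chaperonin subunit gene *Cct5* had 288 with *Fam173b*. *Hsf1*, the heat shock transcription factor, and *Bop1*, a gene of ribosome assembly, were among the low members at 39.3. An IDR score at the maximum of 1000 was listed for 90 of the 92 members, and the exceptions were *Aida*/*Brox* (677) and the weaker *Prkdc*/*Mcm4* peak (956).

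The 5 lowest EtOH members were *Rpn2*/*Mroh8* (28.03), *Gm49086*/*Zfp219* (27.9), *Aida*/*Brox* (26.8), *Bscl2*/*Gng3* (24.8) and *Prkdc*/*Mcm4* (11.6). Those at *Zfp219*, *Bscl2*/*Gng3* and *Prkdc*/*Mcm4* were weaker neighbours of a second member in the same region, with signal values there of 444, 280.5 and 554. The *Rpn2*/*Mroh8* interval overlapped a peak of 300.99 that met the promoter of *Rpn2* alone and missed that of *Mroh8* by 123 bp. Weaker members of this kind numbered 11 in all, with a median of 54.1, and the strongest member of each of the 81 regions had a median of 313.

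The 11 regions with 2 members shared a geometry. Both summits were listed within 1 interval at 5 of them (*Gm16062*/*Flcn*, *Ankrd13a*/*Git2*, *Ddx54*/*Rita1*, *Cpsf2*/*Ndufb1-ps* and *Gm37714*/*Gm35025*) and in overlapping intervals at the other 6. The summits were 199 to 232 bp apart, with a median of 203 bp, whatever the distance between the TSSs. The stronger signal value was 1.502 times the weaker one at *Fam187b*/*Lsr* (194 and 129), 6.87 times at *Gm16062*/*Flcn* (704 and 103) and 47.98 times at *Prkdc*/*Mcm4* (554 and 11.6). The weaker summit lay at the higher coordinate in all 11, and in 30 of 32 such pairs among the other EtOH peaks, where the spacing was 199 to 279 bp. In the 4-OHT list it did so in 14 of 19 pairs, with a spacing of 199 to 816 bp. The cause of this direction was not tested. Over the strongest member of each of the 81 regions, 77 were head-to-head, 57 had 2 protein-coding genes and 60 held the motif core.

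Membership was decided by few bases at some peaks. The smallest overlap with the second strand's promoter was 20 bp, at both *Ankrd13a*/*Git2* peaks, then 32 bp at *Mir8102*/*Pip4k2b* and 40 bp at the weaker *Zfp219* peak. Just outside, *Gabarapl1* (signal value 70.8) missed by 13 bp and *Gm26805* (50.7) by 20 bp, and a strong peak at *Eed* (678) missed by 107 bp. In all, 34 of the 284 one-strand peaks lay within 1 kb of a promoter on the other strand.

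The rule nearly fixes the order of the TSSs, since a promoter runs upstream of its TSS: a peak that meets promoters of both strands has the minus-strand TSS to the left of the plus-strand TSS, head-to-head, unless the TSSs cross inside the peak. The share of head-to-head members is therefore no finding. The distances given are those between the annotated TSSs nearest the summit, and they change where another TSS is picked. They were not set beside both-strand promoters without a peak. The nearest TSSs were head-to-head at 88 of the 92 members (95.7%), with a median of 202 bp between them (interquartile range 106 to 324.5 bp, range 6 to 1450 bp). Of these, 22 had at most 100 bp between the TSSs, 62 had at most 300 bp, and 5 had over 1000 bp. The share also rests on the use of the TSS nearest the summit: with the TSS of the longest transcript of each gene, 70.7% of the members were head-to-head. The interval reached over both TSSs at 49 members.

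The closest coding pairs were *Prdx2*, encoding a peroxidase of the peroxiredoxin family, with *Rnaseh2a*, the catalytic subunit of ribonuclease H2, whose TSSs were 6 bp apart (signal value 363), and *Rhbdd3*/*Ewsr1*, 7 bp apart. *Mrps11* and *Mrpl46*, which encode proteins of the small and the large mitochondrial ribosomal subunit, followed at 30 bp (290.2). *Bccip*, encoding a BRCA2-interacting protein, and the haem synthesis gene *Uros* were 52 bp apart (412), and *Aida*/*Brox* were 58 bp apart (26.8). These 5 pairs thus held both strong and weak peaks. Their distances, and so their place among the closest pairs, rest on the TSSs nearest the EtOH summit. At the summits listed after deletion of *Prdm10*, other TSSs were nearest at some of them. There the TSSs of *Rhbdd3*/*Ewsr1* overlapped by 19 bp at the stronger summit and lay 167 bp apart at the weaker. Those of *Bccip*/*Uros* lay 239 bp apart. Over the head-to-head members, the median signal value was 360.1 with up to 100 bp between TSSs (22 members), 242 with over 100 and up to 300 bp (40 members) and 256 with more (26 members), and the interquartile ranges, 206 to 509, 67.7 to 450.3 and 108 to 408, overlapped.

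At the 4 other members the TSSs crossed, so that the transcripts overlap in their first bases. They were *Cspp1* with *Cops5*, a COP9 signalosome subunit gene (121 bp of overlap, signal value 415), *Ssrp1*, a subunit of the histone chaperone FACT, with the ATP receptor gene *P2rx3* (11 bp, 266), the microRNA gene *Mir7668* with *Zfp27* (63 bp, 115), and *Lyrm1* with *Dcun1d3* (243 bp, 40.0). None of the 4 overlapped a 4-OHT peak.

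The summit lay between the TSSs at 55 of the 88 head-to-head members (62.5%, interval 52.1 to 71.9%). The share went with the room available: 5 of 22 where the TSSs were at most 100 bp apart, 28 of 40 with over 100 and up to 300 bp, and 22 of 26 beyond that. The distance from the summit to the nearer TSS had a median of 73 bp (interquartile range 38.8 to 113 bp), and 59 of the 92 summits lay within 100 bp of a TSS. The plus-strand TSS was the nearer one at 53 members and the minus-strand TSS at 39. The 11 weaker peaks all counted on the plus side, so over the strongest member of each region these counts were 42 and 39, and the summit was between the TSSs at 50 of 77.

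**Figure D2:**
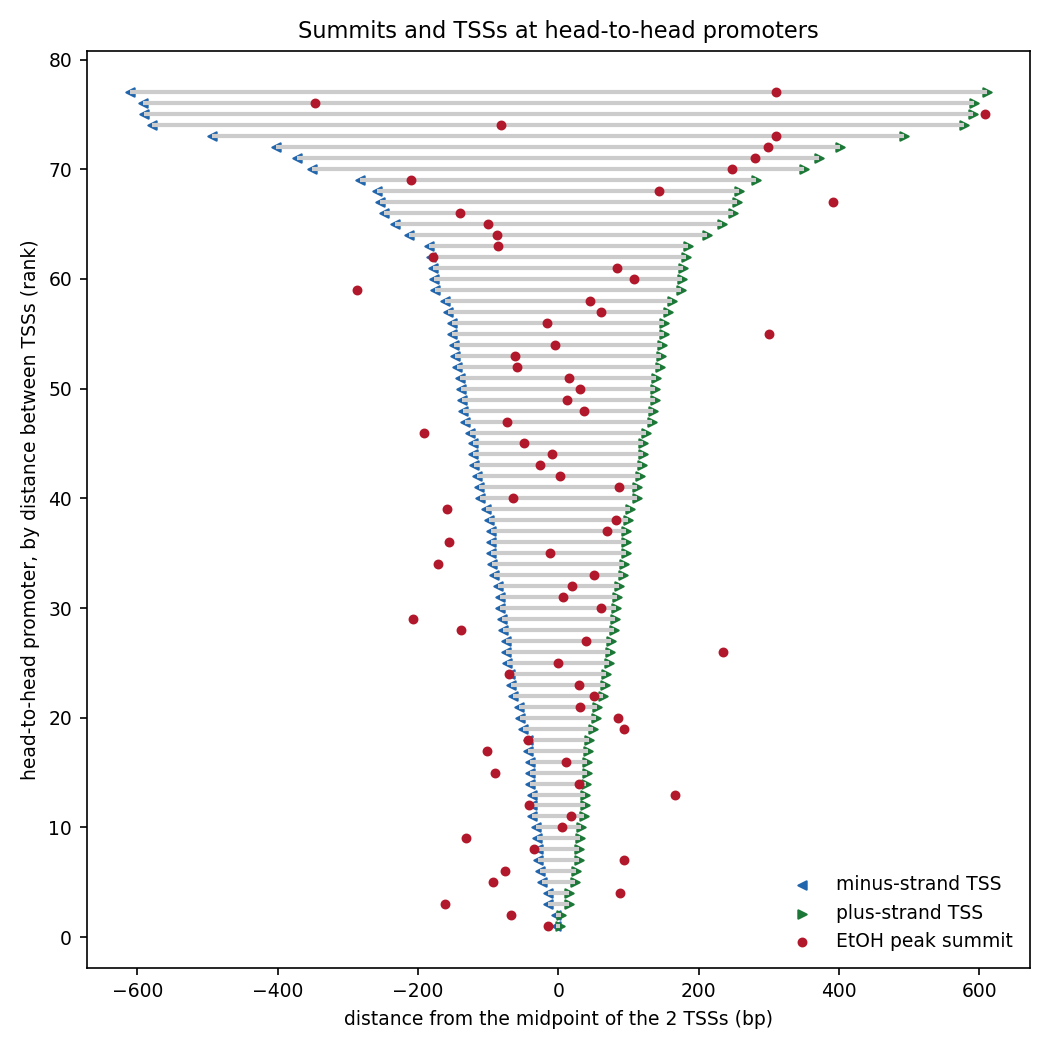
Position in bp of the minus-strand TSS, the plus-strand TSS and the EtOH summit at 77 head-to-head promoters (strongest peak of each region), centred on the midpoint of the TSSs and ordered by the distance between them. The summit lies between the TSSs at 50 of the 77.

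Protein-coding genes stood on both sides at 64 of the 92 members (69.6%, interval 59.5 to 78.0%), on one side at 26, and on neither at 2, both at *Gm37714*/*Gm35025*. Where TSSs were equally near the summit, a protein-coding transcript was taken first. No such share is given for both-strand promoters without a peak, so whether coding pairs are commoner at members is not shown. The 30 sides not annotated as protein-coding were annotated as antisense (12), TEC (5), bidirectional promoter lncRNA (4), processed transcript (4), miRNA (3) and lincRNA (2). The median signal value was 294 (interquartile range 130 to 448) for coding pairs and 196 (77.8 to 421) for the other 28 members. Coding pairs had the summit between the TSSs at 41 of 61 head-to-head members, and the others at 14 of 27.

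The gene lists examined (families named by their symbols) each had few members. *Mrps27*, *Mrps11* and *Mrpl46* were 3 of the 33 mitochondrial ribosomal protein genes with a both-strand promoter. The respiratory chain genes *Uqcrh* (with *Lrrc41*, 484) and *Uqcrq* (with *Gdf9*, 191), of complex III, and *Atp5h* (with *Kctd2*, 410.2), of ATP synthase, were 3 of 44. The ubiquitin genes *Uchl1* (731), *Ube2b* (with *Gm12204*, 413) and *Ube2a* (with *C330007P06Rik*, 254), the last 2 encoding closely related ubiquitin-conjugating enzymes, were also 3 of 44. The centromere protein genes *Cenpn* and *Cenpp* (with *Nol8*, 313) were 2 of 7. The DNA replication and repair list, which was set by gene symbol families and leaves out such genes as *Prkdc*, *Rev3l* and *Gins2* at members, held 2 of 37, *Mcm4* and the mitochondrial DNA polymerase gene *Polg* (with *Gm10616*, 348).

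The translation elongation factor gene *Eef1d* (with *Tigd5*, 453) was 1 of 18 translation factor genes, *Ewsr1* was 1 of 14 RNA-binding protein genes, and *Zfp27* (115) with *Zfp646* and *Zfp668*, the last 2 back to back (45.9), were 3 of 65 zinc finger genes. *Zfp219* (444) lay at a member as well, but its most upstream TSS lies at a promoter of one strand only. None of the 21 cytosolic ribosomal protein genes with a both-strand promoter lay at a member, and no snoRNA or snRNA gene did. Over all coding genes with a both-strand promoter, 123 of 3522 (3.49%) lay at a member, and the shares of the lists ran from 0 to 9.09% apart from that of the centromere proteins, 28.6%, which rests on 2 genes. These counts carry no test.

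The annotation itself holds many promoters of this kind. In a window of 430 bp, the commonest width in the EtOH list, centred on the most upstream TSS of each protein-coding gene, 3522 of 21938 genes (16.1%) met the both-strand rule. An EtOH peak overlapped the window at 111 of these 3522 genes (3.15%, interval 2.62 to 3.78%) and at 187 of the 18416 others (1.02%, interval 0.880 to 1.17%). Each peak over a coding pair counts here for both genes. CpG content moved with the class: 72.7% of the both-strand windows and 39.2% of the others had over 55% GC and an observed-to-expected CpG ratio over 0.6. Within such windows the shares with a peak were 3.48% (89 of 2560, interval 2.83 to 4.26%) and 2.02% (146 of 7217, interval 1.72 to 2.37%), and in the remaining windows 2.29% (22 of 962) and 0.366% (41 of 11199). The part of transcription in these cells was not tested.

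The members' own sequence was rich in GC and CpG. Their median GC content was 62.4% (interquartile range 57.4 to 69.2%) and their median CpG ratio 0.844 (0.711 to 0.933). One-strand promoter peaks had 62.1% and 0.753 (0.581 to 0.886), and peaks away from promoters 51.9% and 0.271 (0.138 to 0.446). No member had over 50% of its bases in annotated repeats.

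The motif core was present in 69 of the 92 EtOH members (75%, interval 65.3 to 82.7%), in 196 of the 284 one-strand peaks (69.0%, interval 63.4 to 74.1%) and in 74 of the 152 peaks away from promoters (48.7%, interval 40.9 to 56.6%), and in 64.2% of the whole EtOH list. Of 3411 windows with the members' widths at both-strand promoters of coding genes without an EtOH peak, 17.6% held a core (interval 16.3 to 18.9%). Seen from the annotation, 67 of the 738 both-strand windows with a core had an EtOH peak (9.08%), against 1.58% of the both-strand windows without one. Among one-strand windows these shares were 3.02% and 0.516%. A longer reading of 14 bases, which adds preferences to the core, matched 34 members (37.0%, interval 27.8 to 47.2%), 109 one-strand peaks (38.4%, interval 32.9 to 44.2%) and 33.1% of the whole EtOH list. It matched 1.11% of the windows without a peak, and 33 of the 73 both-strand windows that held it had an EtOH peak (45.2%). For one-strand windows this was 57 of 327 (17.4%).

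The 69 members held 89 distinct core sites, 50 on the plus and 39 on the minus strand. Of these members, 26 had at least 2 cores, beside 72 of the 196 one-strand peaks with a core and 121 of 339 in the whole EtOH list. Among the members 19 had cores on both strands, and *Ddx54*/*Rita1* had 4, the most of any member, of which 3 are in the stretch printed above. The sites lay a median of 81 bp from the summit (interquartile range 46 to 124 bp), and 61 of the 89 (68.5%) were within 100 bp of it, where a median of 50.1% of a member's bases lie. Taking only the core nearest the summit of each peak, the median distance was 76 bp at members. It was 53 bp at one-strand peaks and 51 bp away from promoters. At head-to-head members 49 of 83 sites fell between the TSSs. Of the 89 sites, 59 (66.3%, interval 56.0 to 75.3%) read in the direction of transcription of the nearest TSS, beside 169 of 285 sites (59.3%, interval 53.5 to 64.8%) at one-strand promoters. The sites upstream of the nearest TSS read with it in 47 of 64 cases, and those downstream in 12 of 25, where the counts at one-strand promoters were 137 of 232 and 32 of 53. At members with 1 coding gene, 13 of 26 sites read towards the coding gene.

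**Figure D3:**
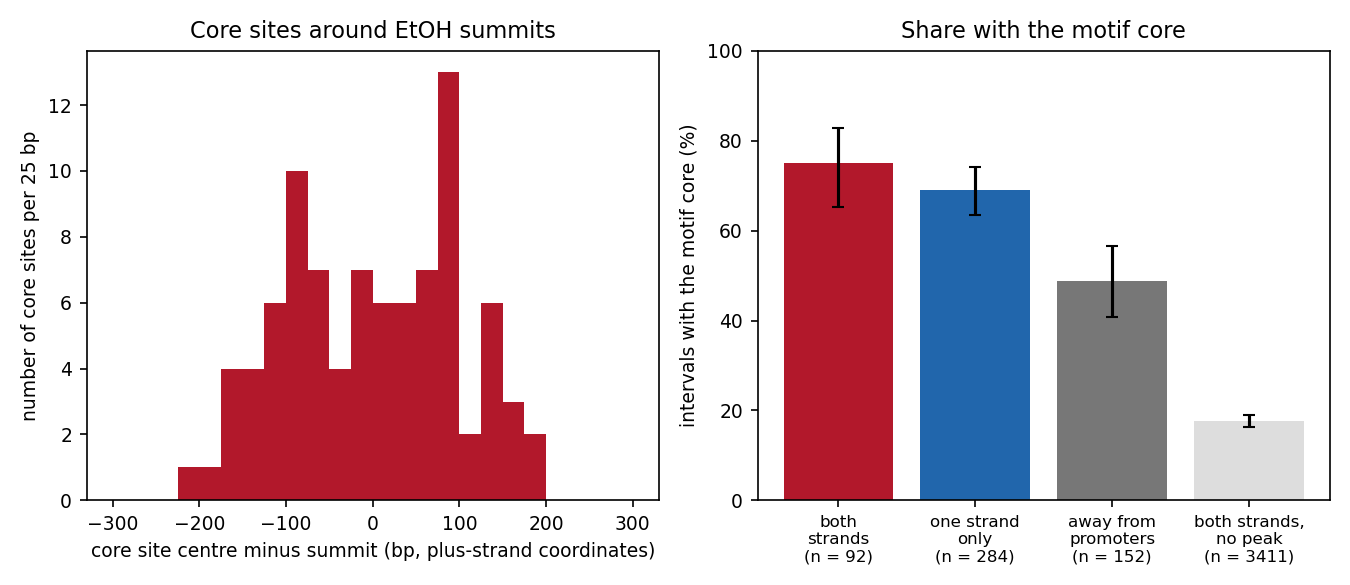
Left, number of core sites per 25 bp around the summits of EtOH members, as site centre minus summit in bp. Right, percent of intervals with the motif core in the 3 classes of EtOH peaks and in windows at both-strand promoters without an EtOH peak, with Wilson 95% intervals: 75%, 69.0%, 48.7% and 17.6%.

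A core was missing from 23 members, among them the strongest of all, *Cenpn*/*Cmc2* (838). The next in order of signal value were *Ap3s1*/*Atg12* (488), of vesicle sorting and autophagy, *Lrrc41*/*Uqcrh* (484), *Myom1*/*Myl12b* (443), *Gm12204*/*Ube2b* (413) and *Kctd2*/*Atp5h* (410.2). Members without a core had a median signal value of 266 (interquartile range 51.4 to 379) and members with one a median of 290.2 (115 to 453). Of the 23, 11 held a stretch that departs from the 14-base reading at 1 position, and at 9 of those the departing position was 6, the last T of TGGT. In an interval without a core, a single departure can fall only on TGGT or CC. Both *Gm37714*/*Gm35025* members are among the 9 and share 1 such stretch. Among 2740 windows of 430 bp without a core, centred on coding TSSs at both-strand promoters without a peak, 21.1% held such a stretch with 1 departure and 6.17% one at position 6. Among the 88 one-strand peaks without a core these shares were 53.4% and 25%.

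The stretches of 3 such members are shown with 8 bases on either side, reading in the direction of the motif, the departing base in capitals. They lay 90.5, 2.5 and 15.5 bp from the summit.

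*Cenpn*/*Cmc2*, chr8:116921500-116921529, minus strand: cgagccccggtggGatggccctagatcccc

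*Kctd2*/*Atp5h*, chr11:115420089-115420118, plus strand: cgcccgccgatggGccggcccggctctccc

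*Gm10616*/*Polg*, chr7:79466263-79466292, plus strand: gcgccgccaatggAgccgcccgcccgcggg

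After deletion of *Prdm10*, 28 of the 92 EtOH members still overlapped a 4-OHT peak (30.4%, interval 22.0 to 40.5%). This was so for 20.3% of all EtOH peaks, for 74 of 284 one-strand promoter peaks (26.1%, interval 21.3 to 31.5%) and for 5 of 152 peaks away from promoters (3.29%). The study reported that every control peak was lost or much weaker in depleted cells, so an overlap does not mean unchanged binding. The members' share was above that of the whole list and within the interval of the one-strand peaks. Where the overlap had to cover at least 50% of each interval, the members' share was 16.3%, the 4-OHT intervals being up to 1140 bp wide. An EtOH peak narrower than 50% of the 4-OHT interval cannot meet that condition, so this lower share was partly fixed by the widths.

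The overlap followed the signal value. The members that overlapped a 4-OHT peak had a median EtOH signal value of 463 (interquartile range 238 to 561) and those without one of 212 (62.9 to 365). Among the 132 strongest EtOH peaks, 17 of 36 members (47.2%, interval 32.0 to 63.0%) and 58 of 87 one-strand peaks (66.7%, interval 56.2 to 75.7%) overlapped a 4-OHT peak. The gap depends on where the list is divided: among the 100 strongest EtOH peaks these counts were 16 of 25 members and 48 of 69 one-strand peaks. Among the 132 after the strongest 132 the order was the other way round, with 7 of 27 members (25.9%, interval 13.2 to 44.7%) and 11 of 88 one-strand peaks (12.5%, interval 7.13 to 21.01%). In both groups of 132 the intervals overlapped. In the third group of 132 these were 2 of 17 members (11.8%) and 4 of 70 one-strand peaks (5.71%), and in the weakest 132 they were 2 of 12 (16.7%) and 1 of 39 (2.56%).

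**Figure D4:**
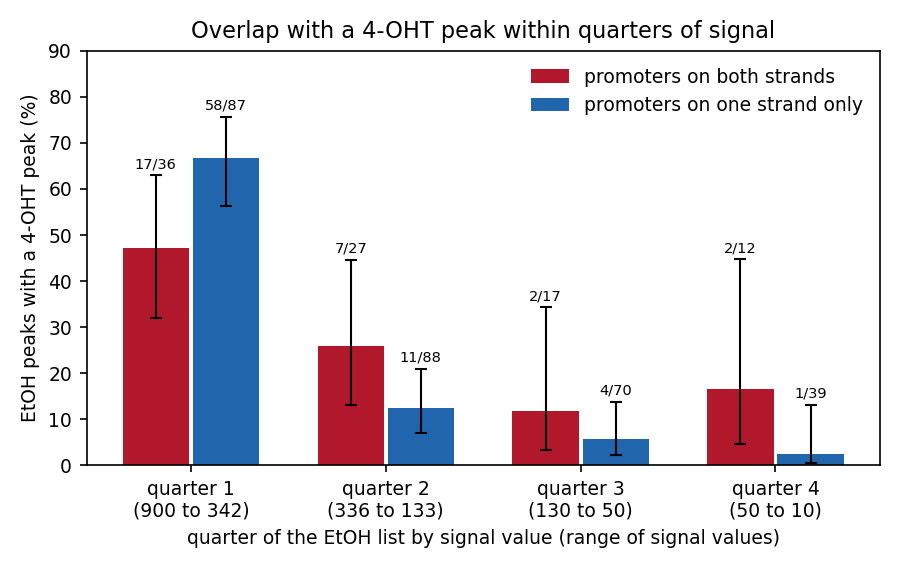
Percent of EtOH peaks that overlap a 4-OHT peak, within 4 groups of 132 EtOH peaks by falling signal value, for promoters on both strands and on one strand only, with Wilson 95% intervals and counts. Members are at 47.2% in the strongest group and 25.9% in the next, one-strand peaks at 66.7% and 12.5%, and the gap in the strongest group depends on its size (16 of 25 members and 48 of 69 one-strand peaks among the 100 strongest).

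The 3 strongest members without a 4-OHT peak were *Gm16062*/*Flcn* (704), *Ankrd13a*/*Git2* (534) and *Cpsf2*/*Ndufb1-ps* (518), *Cpsf2* encoding a subunit of the mRNA cleavage and polyadenylation factor. The 3 weakest with one were the second peaks at *Prkdc*/*Mcm4* (11.6), *Ppp1r13l*/*Cd3eap* (38.7) and *Ddx54*/*Rita1* (69.8), each of which met the 4-OHT peak that its stronger neighbour met as well. Per region, 25 of 81 overlapped a 4-OHT peak by their strongest peak (30.9%).

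Every one of the 29 4-OHT members overlapped an EtOH peak (interval 88.3 to 100.0%), where 61.9% of all 4-OHT peaks, 76 of the 86 at one-strand promoters and 4 of the 61 away from promoters did. The strongest 4 were *Cenpn*/*Cmc2* (427, rank 3 in the 4-OHT list), *Smc3*/*AC137853.1* (271), *Arpc4*/*Tada3* (248) and *Rhbdd3*/*Ewsr1* (207), which held ranks 2, 21, 27 and 22 of 528 in the EtOH list. *Eef1d* and *Ube2a*, bound genes that the study followed further, stood at ranks 82 and 182 of 528 in the EtOH list and at ranks 64 (91.5) and 98 (52.2) of 176 in the 4-OHT list. Over the 31 overlapping pairs of an EtOH member and a 4-OHT peak, the summits were a median of 36 bp apart (range 0 to 541 bp), and 18 pairs were within 50 bp.

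For 26 of the 29 4-OHT members the EtOH peak was itself a member. The other 3 were *Gm10459*/*Slbp* (122), *E230029C05Rik*/*Eed* (64.7) and *Trir*/*Asna1* (14.2), where the 4-OHT interval was 1140 bp wide and the EtOH peak, 427, 492 and 365 bp wide, met promoters of one strand only, with signal values of 515, 678 and 392. *Slbp* encodes the histone mRNA stem-loop binding protein and *Eed* a Polycomb repressive complex subunit. Of the 29 4-OHT members, 14 had this width of 1140 bp, so membership in the 4-OHT list rested on wider intervals than in the EtOH list, where the widest member spanned 638 bp. A core was present in 25 of the 29 (86.2%, interval 69.4 to 94.5%), beside 81.4% of one-strand and 44.3% of the remaining 4-OHT peaks, in intervals of unlike width.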

How the data were processed

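The authors aligned reads to mm10 with BWA 0.7.13, removed duplicates with Picard 2.10.6 and filtered with SAMtools 1.2 (versions per the labels), called peaks with SPP in the ENCODE pipeline, removed blacklisted peaks and kept those with an IDR of at most 0.05 over pseudo-replicates of the pooled samples. The deposited lists, 1 per treatment, give an IDR score capped at 1000, a signal value (the authors' enrichment over the pooled samples), a further score for the FDR, not used here, and the summit as an offset. The study gives an approximate sequencing depth per library, but no read counts per sample or peak were used here, and with 1 pooled list per treatment no test was run.

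Peak starts were taken as counted from 0. The files' build, mm10, is GRCm38, that of the genome and of GENCODE M21 used here (141767 transcripts). Overlaps, shares and motif scans were computed with Python 3.11.15, pandas and pyfaidx, and the strand rule and the motif scan were tested on simulated data. The core and the 14-base reading were read by eye from the study's motif logo. Named genes were the 12 strongest and 5 weakest EtOH members, the 4 strongest 4-OHT members, the 3 strongest members without and the 3 weakest with a 4-OHT peak, the 5 closest head-to-head and the strongest overlapping coding pairs, genes of the lists, and bound genes that the paper names. Further members between the strongest and the weakest, those without a core, those in regions of 2 and those at the edge of the rule were named after their values were seen, as were the CpG classes, the orientation of sites and the 1-departure search. Members, lists and rules were chosen with earlier results of these data known. The authors' ChIP samples could not be told apart within a list.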

Additional observations from a re-analysis of the deposited data

How the results depend on the processing

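Of 31 alternatives over 8 results, 26 left counts within 1.5 times, shares within their Wilson interval and medians within the binomial interval of the median. The other 5 were as follows. The share of EtOH members with a 4-OHT peak was 16.3% when at least 50% of both peaks had to overlap. EtOH peaks narrower than 50% of the 4-OHT interval could not meet that condition. The share with head-to-head TSSs was 70.7% with the TSS of the longest transcript of each gene. The share with 2 coding genes was 100% with coding genes only, by construction. The share with the motif was 37.0% for the 14-base reading and 50.0% within 100 bp of the summit. The number of EtOH members ran from 64 (coding genes only) to 120 (promoters of 1 kb on both sides of the TSS), and that of 4-OHT members from 20 to 38 under the same settings. No paired analysis was possible because each treatment has 1 list pooled over its antibodies, and for the same reason no sample could be left out. The reads behind each peak are not in the lists, so what depth limits was not measured: a member without a 4-OHT peak is not shown to be free of signal.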
